A study of Mus musculus with 6 samples.

Results

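The genes described here are 10 immediate early genes, found by their symbols among the 22030 genes of a count table. The RNA came from mBMSCs, mesenchymal stem cells of mouse bone marrow. Of these, 7 encode the subunits of the transcription factor AP-1, namely Fos, Fosb, Fosl1 and Fosl2 of the Fos family and Jun, Junb and Jund of the Jun family. Egr1, Ier2 and Ier3 are the other 3. Each symbol matched a single row, and all 10 passed the filter on low counts. Messenger RNA was sequenced in 6 libraries in 2 groups of 3. The control group, titled siNC, carries the genotype label WT, and the other group, titled siRIOK3, carries the label RIOK3 knockdown. The design text speaks of stable lines made with lentivirus and of a knockout, whereas the titles begin with si, and it calls the controls blank. Which agent lowered RIOK3, and what the controls received, is therefore unclear from the labels. The sources used here give no mouse strain, age, medium, serum or time of harvest, and do not say whether the 3 libraries of a group are separate cultures. The p-values therefore measure only the spread between these libraries, which may be technical.

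Immediate early genes are switched on within minutes of a growth factor, serum or stress signal, without new protein synthesis, and many of their mRNAs are short-lived. Fos and Jun proteins are basic leucine zipper proteins. A Fos protein binds DNA only together with a partner such as a Jun protein, whereas Jun proteins also pair with each other. The dimers bind sites that fall within the pattern TGANTCA (N is any base), which is wider than the usual site. In bone, Fos family members are known as regulators of both osteoblasts and osteoclasts.

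Upstream sequences are shown for the 4 genes that were lower in siRIOK3 and have an entry in the RefSeq promoter table (GRCm38.p6). They let a reader look for the motifs listed below, and elements further upstream are not covered. Each runs 5′ to 3′ over the 250 bases before the RefSeq start. Capitals mark matches on either strand to the motifs searched: the CArG box bound by serum response factor, the AP-1 site TGANTCA given above, the cyclic AMP element TGACGTCA, the shorter TGACG that lies within that element, the GC box of Sp1 with letters GGGCGG, the TATA box in its form TATAAA, and the core bound by ETS factors, CCGGAA. The regions are chr12:85473640-85473889 on the plus strand for Fos, chr7:19310046-19310295 on the minus strand for Fosb, chr4:95052223-95052472 on the minus strand for Jun and chr8:84978749-84978998 on the minus strand for Junb.
Fos: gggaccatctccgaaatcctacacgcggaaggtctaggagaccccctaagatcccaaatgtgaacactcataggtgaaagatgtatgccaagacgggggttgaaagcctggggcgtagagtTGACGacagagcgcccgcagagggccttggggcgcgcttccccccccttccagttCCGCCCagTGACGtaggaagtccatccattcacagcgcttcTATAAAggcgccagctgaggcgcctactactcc
Fosb: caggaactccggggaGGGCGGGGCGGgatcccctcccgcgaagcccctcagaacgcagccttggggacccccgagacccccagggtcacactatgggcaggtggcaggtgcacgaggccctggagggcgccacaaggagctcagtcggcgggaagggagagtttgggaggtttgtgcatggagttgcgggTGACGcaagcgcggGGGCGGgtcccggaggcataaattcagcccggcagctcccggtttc
Jun: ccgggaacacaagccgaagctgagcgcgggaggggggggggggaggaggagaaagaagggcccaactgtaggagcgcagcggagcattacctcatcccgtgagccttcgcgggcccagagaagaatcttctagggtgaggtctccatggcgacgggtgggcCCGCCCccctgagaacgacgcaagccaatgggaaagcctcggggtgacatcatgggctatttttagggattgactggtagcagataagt
Junb: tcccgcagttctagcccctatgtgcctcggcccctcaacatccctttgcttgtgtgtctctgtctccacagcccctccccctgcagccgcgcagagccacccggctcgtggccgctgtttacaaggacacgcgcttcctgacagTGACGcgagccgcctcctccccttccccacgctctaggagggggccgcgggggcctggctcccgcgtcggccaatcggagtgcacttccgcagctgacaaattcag

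TGACG was found in Fos at 2 places, positions −129 to −125 and −66 to −62 counted from the start (−1 is the base before it), and once each in Fosb and Junb. It occurs in 17.8% of all 32851 RefSeq windows of this length. Fos also holds TATAAA at −33 to −28 (12.4% of windows), and Fos, Fosb and Jun hold the GC box (32.7%). None of the 4 windows holds a CArG box, TGANTCA or TGACGTCA, which occur in 1.47, 6.75 and 1.55% of all windows. That says only that these letters are not in these windows. Bases further upstream and variants of the letters, such as tgacatca in the Jun window, were not searched. On the same scale the GENCODE M21 start equals the RefSeq start for Fos and Jun and lies at −6 for Fosb and 30 for Junb. Of the members called lower, Fosl1 has no entry in the table. Among the genes not called lower, the windows of Fosl2 and Ier3 each hold 1 GC box and that of Jund holds no motif, but the GENCODE start lies at −671 relative to the RefSeq start for Fosl2 and at 1210 for Jund.

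AU-rich pentamers (ATTTA), which mark short-lived mRNAs when they are clustered in a 3′ UTR, were counted in 1 GENCODE M21 transcript for each gene. Short windows are shown for 2 genes that fell and 2 that did not. Capitals mark the pentamers.
Fos: tgtgttttcaATTTATTTAttaagatggat
Jun: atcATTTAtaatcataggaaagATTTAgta
Fosl2: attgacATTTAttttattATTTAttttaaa
Ier3: taattaatATTTAtgtATTTAtgtatatcc
On GRCm38 these 3′ UTR windows lie at chr12:85477101-85477130 (plus strand), chr4:95049207-95049236 (minus), chr5:32156865-32156894 (plus) and chr17:35822485-35822514 (plus). The 3′ UTR of Ier3 holds 5 pentamers, or 8.16 per kb, that of Fos 4 (4.91 per kb), that of Jun 4 (3.24 per kb) and that of Fosl2 8 (1.72 per kb). Ier2 holds none. The median over the 11619 tested genes with a 3′ UTR was 1.21 per kb, and 66.4% of them hold at least 1 pentamer. Pentamer counts did not separate the members that fell from those that did not: Fosb, among the largest falls, holds 1 in 2145 bases, and Ier3, which was not called, has the densest 3′ UTR of the 10.

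The libraries held between 28327612 and 32569544 counts. Riok3, the targeted gene, had 4266, 5365 and 4022 counts in the siNC libraries and 1034, 1048 and 1155 in the siRIOK3 libraries. Its log2 fold change was −2.23, and −1.20 once a trend on GC content, described further on, was removed. With siNC replicate 2 also left out, Riok3 was at −0.89. It was called lower in each of these fits. All 16 mesenchymal marker genes were in the table, with a summed level of 850 to 1100 CPM in siNC and 966 to 981 CPM in siRIOK3. Single markers moved both ways beneath that sum: of 15 tested, 7 were called lower, among them Alcam (log2 fold change −2.57), Vcam1 (−1.44) and Prrx1 (−1.04), and 6 higher, among them Col1a1 (1.39), Col1a2 (1.21) and Pdgfrb (1.13). With the trend on GC content removed, 3 were lower and 5 higher. Prrx1 was then among the higher, at 0.48. Cd44 (−0.80 without the correction and 0.09 with it) and Itgb1 (−0.61 and 0.23) also changed sign and lost their lower calls. Alcam, Vcam1, Col1a1, Col1a2 and Pdgfrb kept their direction. Of the classical mesenchymal markers, Thy1 had at most 36 counts and the leptin receptor gene Lepr at most 13 in any library. Of 13 myeloid markers 8 were in the table, summing to 26.7 to 43.3 CPM in siNC and 46.5 to 51.7 CPM in siRIOK3. Cd68, which stromal cells can also express, made up most of this (35.3 ± 9.66 and 48.3 ± 2.58 CPM), while Ptprc had at most 3 counts. Endothelial markers, 5 of 6 in the table, summed to 7.22 to 10.8 CPM in siNC and 14.7 to 16.3 CPM in siRIOK3, chiefly Kdr and Vwf, with at most 14 counts of Pecam1. Lymphocyte, erythroid, adipocyte and epithelial markers summed to at most 0.108 CPM in any library. The part of these marker differences in the results was not tested. In RNA from whole cultures, fewer cells of a type and less RNA per cell cannot be told apart.

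Among the AP-1 and immediate early genes the falls outnumbered the rises. Of 10 tested members, 5 were lower (Fos, Fosb, Jun, Fosl1 and Junb) and 1 was higher (Egr1), and 4 did not pass the test (edgeR's quasi-likelihood test, with p adjusted by Benjamini-Hochberg over all 13067 genes and a threshold of 0.05). By the same rule 48% of all tested genes were called, 26.8% lower and 21.1% higher. The median log2 fold change of the members was −0.23, against 0.01 for all tested genes. The groups did not overlap in CPM for 6 of the 10, against 62.1% of all genes. Levels below are CPM, counts scaled to library size by TMM. Means carry the SD of 3 libraries, and fold changes are siRIOK3 over siNC.

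**Figure D1:**
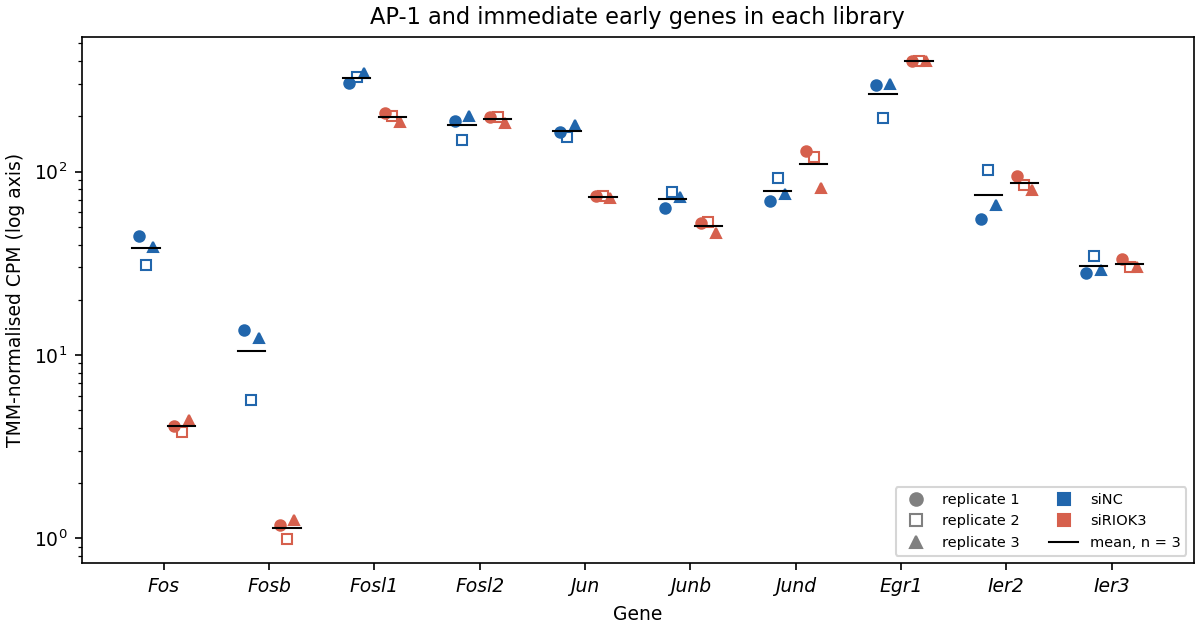
TMM-normalised CPM (log axis) of each gene in each library, with the replicate number as the symbol and the mean of 3 as a bar. Fos and Fosb sit at 3.79 to 4.44 and 0.991 to 1.26 CPM in siRIOK3, below every siNC library, while Fosl2, Jund, Ier2 and Ier3 overlap between the groups.

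Fos, the founding member of its family and the usual marker of recent stimulation, was at 44.7, 31.0 and 38.6 CPM in siNC replicates 1, 2 and 3. In siRIOK3 replicates 1, 2 and 3 it was at 4.07, 3.79 and 4.44 CPM. The siRIOK3 libraries lay close together and far below all 3 controls. The means, 38.1 ± 6.89 and 4.10 ± 0.330 CPM, differed 9.29-fold (log2 fold change −3.22, SE 0.185, edgeR adjusted p = 3.66e-05). A fall of at least 4-fold was called for 8.64% of all tested genes, and among the members for Fos and Fosb.

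Fosb, a close relative of Fos that is also induced within minutes, stood at 13.6, 5.68 and 12.4 CPM in the siNC libraries. It stood at 1.18, 0.991 and 1.26 CPM in the siRIOK3 libraries, on 33 to 39 counts each. Control replicate 2 was well below the other two controls, yet above every siRIOK3 library. The means were 10.5 ± 4.26 and 1.14 ± 0.136 CPM (log2 fold change −3.20, SE 0.363, edgeR adjusted p = 0.000549), so Fosb fell about as much as Fos, with a wider error.

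Fosl1, which encodes Fra-1, a Fos protein without the transactivation domain of c-Fos, fell far less. Its libraries were at 303, 329 and 345 CPM in siNC and at 209, 202 and 187 CPM in siRIOK3, without overlap. The means were 326 ± 21.1 and 199 ± 10.9 CPM, 1.63-fold lower (log2 fold change −0.71, SE 0.119, edgeR adjusted p = 0.00274). Fosl2, which encodes the related Fra-2, was at 188, 149 and 202 CPM in siNC and at 199, 199 and 184 CPM in siRIOK3. These values overlapped, and the difference did not pass (log2 fold change 0.11, SE 0.147, edgeR adjusted p = 0.565).

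In the Jun family, Jun itself fell by more than its spread. The gene, whose product is the strongest activator of the 3 Jun proteins, was at 165, 154 and 180 CPM in siNC and at 73.9, 73.8 and 71.5 CPM in siRIOK3. Every siRIOK3 library was far below the lowest control, and these libraries differed little among themselves. The means were 166 ± 13 and 73.1 ± 1.37 CPM, 2.27-fold lower (log2 fold change −1.19, SE 0.119, edgeR adjusted p = 0.000302).

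Junb, a Jun protein that can restrain Jun activity, was at 63.4, 77.1 and 72.3 CPM in siNC and at 52.4, 52.8 and 46.2 CPM in siRIOK3. The groups did not overlap and the fall was small, 1.41-fold (log2 fold change −0.49, SE 0.133, edgeR adjusted p = 0.0197). It was not called without siNC replicate 3 (adjusted p = 0.0583) or without siRIOK3 replicate 1, 2 or 3 (0.073, 0.0734 and 0.101), nor under upper-quartile scaling or library totals alone (0.159 each). Jund, the Jun protein most abundant in resting cells, ran the other way in level. Its siNC libraries were at 68.8, 91.8 and 75.7 CPM and its siRIOK3 libraries at 129, 120 and 81.0 CPM. Replicate 3 of siRIOK3 lay within the control range, so the groups overlapped, and the difference did not pass (log2 fold change 0.48, SE 0.208, edgeR adjusted p = 0.0945). It passed without that library, at 0.67 (adjusted p = 0.037).

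Egr1, a zinc finger factor induced through serum response factor much as Fos is, was the member called higher. Its siNC libraries were at 295, 197 and 302 CPM and its siRIOK3 libraries at 401, 403 and 401 CPM. The siRIOK3 values were nearly equal and all above the controls, among which replicate 2 was low. The means were 265 ± 59.1 and 401 ± 0.995 CPM, 1.52-fold higher (log2 fold change 0.60, SE 0.182, edgeR adjusted p = 0.0300). Without siRIOK3 replicate 1, 2 or 3 the call was lost at a log2 fold change of 0.61 (adjusted p = 0.088, 0.0868 and 0.0821).

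Ier2, a nuclear immediate early protein, was at 54.9, 102 and 65.5 CPM in siNC and at 95.1, 85.0 and 79.7 CPM in siRIOK3. Control replicate 2 was above all other libraries, and the gene did not pass (log2 fold change 0.23, SE 0.235, edgeR adjusted p = 0.457). Without that control it was called higher at 0.53 (adjusted p = 6.96e-05). Ier3, a stress-induced protein linked to cell survival, was at 28.1, 34.7 and 29.0 CPM in siNC and at 33.4, 30.2 and 30 CPM in siRIOK3. These overlapped almost fully (log2 fold change 0.03, SE 0.138, edgeR adjusted p = 0.877).

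Control replicate 2 stood apart from the other controls over all genes, at Spearman correlations of 0.963 and 0.968 to them in log2 CPM, against 0.996 between these. Among the members it was the lowest control for Fos, Fosb, Fosl2, Jun and Egr1 and the highest for Junb, Jund, Ier2 and Ier3. Without it the same 5 genes were called lower, with log2 fold changes of −3.34 (Fos), −3.50 (Fosb), −1.24 (Jun), −0.70 (Fosl1) and −0.43 (Junb). Egr1, at 0.43, and Ier2 were then called higher. In that fit 71.6% of all tested genes were called, 36.5% lower and 35.1% higher.

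Fold changes across the table followed the GC content of transcripts, which moves with these results. The median log2 fold change was −1.97 in the decile of genes with least GC and 0.64 in the decile with most. No member was among the 5 deciles of lowest GC. Fos, at 51.9% GC, was in the sixth decile, where the median was 0.19, and Fosb (56.0%) and Jun (55.5%) in the eighth, where it was 0.43. Fosl1 (58.5%), Junb (62.6%), Jund (67.1%) and Ier2 (60.9%) were in the tenth. In that decile 17 of 1305 genes were called lower, Fosl1 and Junb among them, and 661 higher. Egr1 (57.3%) was in the ninth, where the median was 0.55 and Egr1 stood at 0.60.

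**Figure D2:**
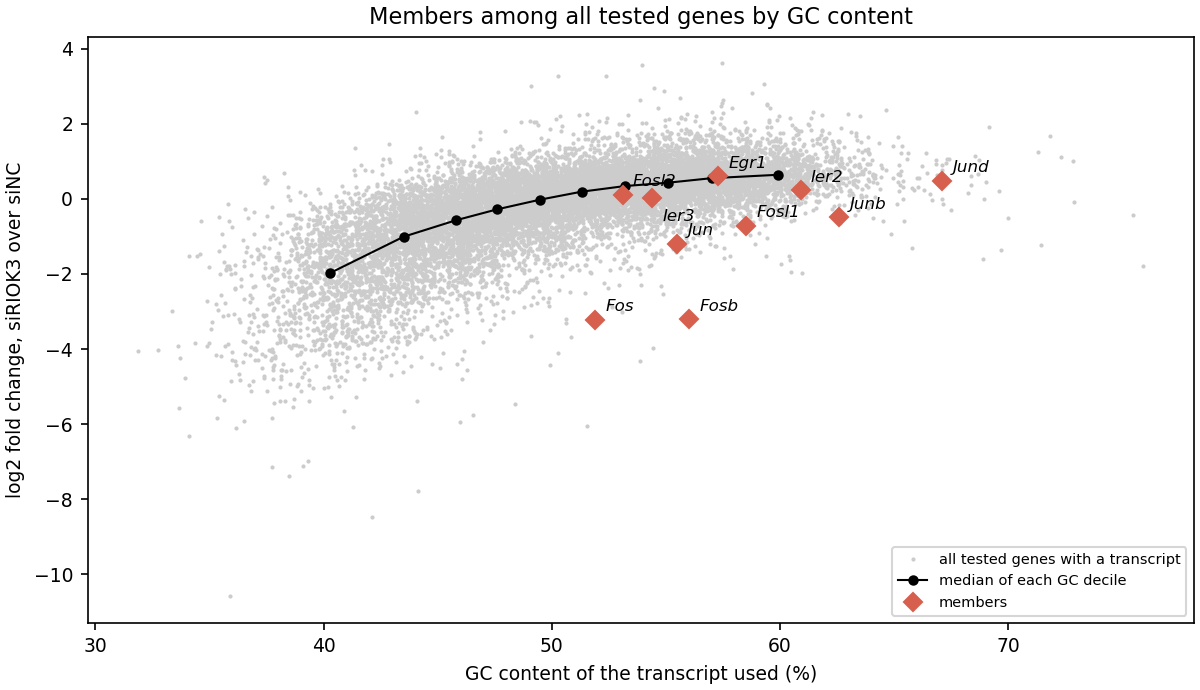
Log2 fold change (siRIOK3 over siNC) against the GC content of 1 transcript per gene for all tested genes (grey), with the median of each GC decile (black) and the 10 members (red). Fos, Fosb, Jun, Fosl1 and Junb lie below the median line at their GC content and Egr1 lies on it.

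When each library's trend on GC content was removed, the same 5 members were lower and none was higher, where 31.6% of all tested genes were called, 15.2% lower and 16.3% higher. The median of the members was then −0.83, against 0.03 for all tested genes. Fos was at −3.41 (SE 0.165, edgeR adjusted p = 0.00017) and Fosb at −3.70 (SE 0.377, adjusted p = 0.00093). Jun, at −1.65, Fosl1, at −1.31, and Junb, at −1.21, had larger falls than without the correction, and Junb kept its call at an adjusted p of 0.000481. Egr1 was at 0.04 (SE 0.190, adjusted p = 0.898), so its higher call was lost. Fosl2 (−0.18), Jund (−0.22), Ier2 (−0.44) and Ier3 (−0.36) changed sign without passing.

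With GC content, adenine content and length removed together, Fosl2 also passed as lower, at −0.46 (adjusted p = 0.0109), and 6 members were lower and none higher. In that fit 34.4% of all tested genes were called, 15.9% lower and 18.5% higher. With the GC trend removed and control replicate 2 left out, 9 members were lower, at −0.15 to −0.29 for Egr1, Ier2, Ier3 and Fosl2, and Jund was not called. In that fit 61.5% of all tested genes were called, 27.9% lower and 33.6% higher. The falls of Fos, Fosb, Fosl1 and Jun thus passed in every alternative in which they were tested, whereas the calls of the other members depended on the composition correction, the scaling or the library left out.

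**Figure D3:**
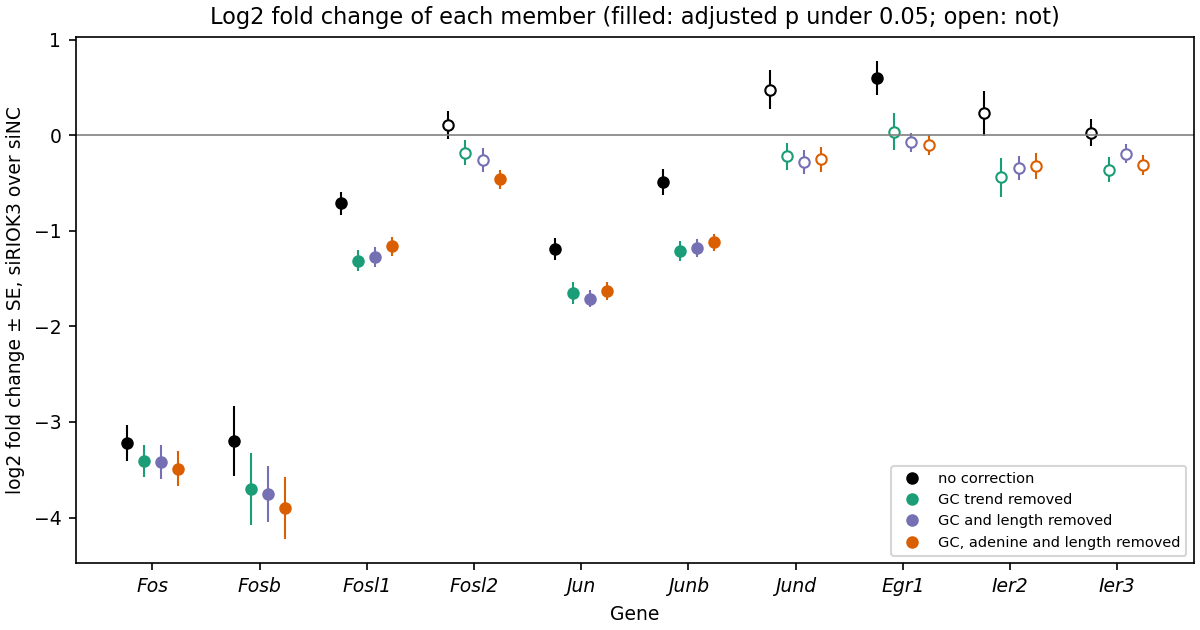
Log2 fold change ± SE of each member without a correction (black) and with the library trends on GC content (green), GC content and length (purple), or GC content, adenine content and length (orange) removed. Filled points passed an adjusted p of 0.05. Fos, Fosb, Fosl1, Jun and Junb are filled in all 4 fits and Egr1 without a correction alone.

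Levels of different genes can be compared per length, in the authors' FPKM, which are scaled to library totals and not by TMM. The gene lengths behind these FPKM are not given, and the order and the shares below depend on them. In siNC, Fosl2 had 180 CPM on a GENCODE M21 transcript of 6537 bases, and Fosb 10.5 CPM on 3782 bases. On those lengths both would stand higher than in the FPKM. In siNC, Fosl1 was the highest member at 141 ± 11.5 FPKM, followed by Egr1 (52.2 ± 12.4), Jun (46 ± 4.63), Ier2 (42.7 ± 13.6) and Jund (41.6 ± 5.80), which overlapped from each to the next. Junb (27.2 ± 2.68) and Ier3 (23.8 ± 2.49) overlapped, as did Fosl2 (16.4 ± 2.84) and Fos (14.3 ± 2.65), and Fosb was lowest at 1.5 ± 0.615 FPKM. In siRIOK3 the order began with Fosl1 (105 ± 5.05), Egr1 (95.6 ± 0.752), Jund (70.3 ± 15.9) and Ier2 (60.6 ± 5.07). Jun, at 24.5 ± 0.337 FPKM, was sixth, overlapping Junb (23.4 ± 1.61), and Fos (1.86 ± 0.157) and Fosb (0.197 ± 0.0252) came last.

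Summed over the family, Fos family transcripts went from 174 ± 13.4 to 128 ± 5.69 FPKM, without overlap between the groups (exact permutation test, two-sided p = 0.10, the smallest that 3 against 3 libraries allow). Fosl1 made up most of this sum in both groups, 81.5 ± 3.0% in siNC and 81.7 ± 0.331% in siRIOK3. The share of Fos went from 10, 6.9 and 7.85% to 1.38, 1.32 and 1.67%, and that of Fosl2 from 9.42 ± 1.20 to 16.7 ± 0.224%. Large falls of Fos and Fosb thus touched a minor part of the family's transcripts.

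Jun family transcripts summed to 115 ± 8.11 FPKM in siNC and 118 ± 17.8 FPKM in siRIOK3, which overlapped (exact permutation test, two-sided p = 0.80). Within that sum, Jun went from 40.2 ± 4.25 to 21.0 ± 3.15% and Jund from 36.2 ± 3.51 to 59.0 ± 4.99%, each without overlap (exact permutation p = 0.10, the smallest possible). The log2 ratio of Fos to Jun family transcripts was 0.596 ± 0.0984 in siNC and 0.127 ± 0.163 in siRIOK3, again without overlap (exact permutation p = 0.10). These are transcript levels on a scale that library composition and the gene lengths used both move. With TMM-scaled CPM per kb of the GENCODE M21 transcript, the Fos family difference was −0.68 on the log2 scale, against −0.44 in FPKM. The Jun family difference was −0.26, against 0.03 in FPKM, and the difference of the log2 ratio was −0.43, against −0.47 in FPKM. GC correction, which lowered Jund, was not applied to these sums.

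**Figure D4:**
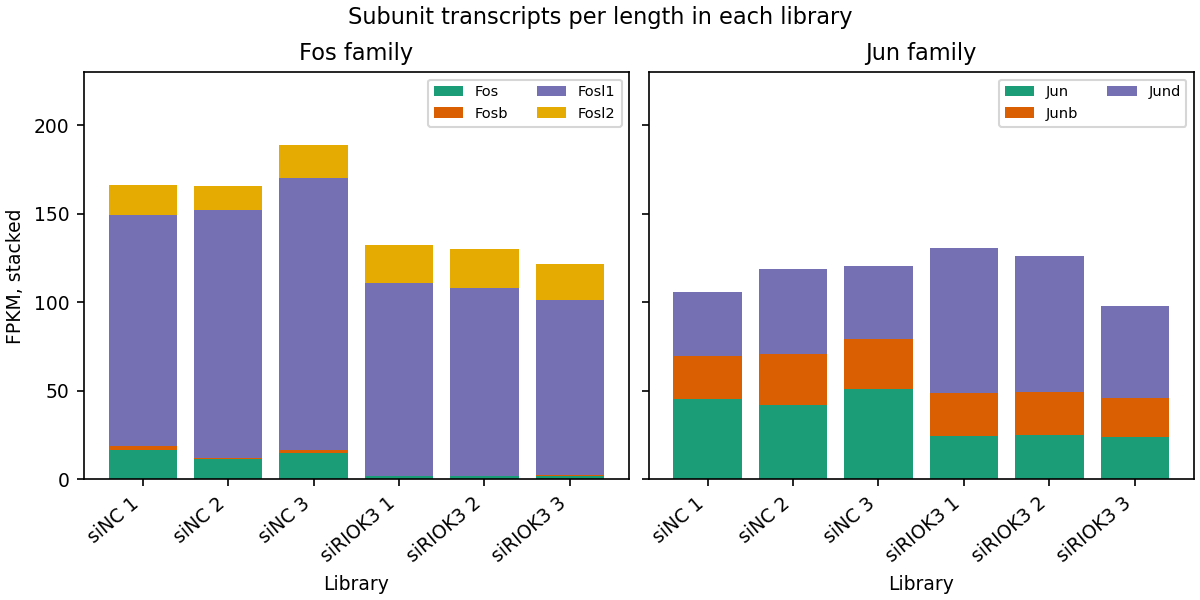
Stacked FPKM of the Fos family (left) and the Jun family (right) in each library. Fosl1 fills most of each Fos family bar. The Jun part is 41.81 to 50.98 FPKM in siNC and 24.09 to 24.74 FPKM in siRIOK3, and the Jund part is larger in siRIOK3.

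Overlapping genes bear on the counts, because no source used here states the strand setting of the counting. In GENCODE M21, Fosl1 overlaps Ccdc85b, Jun overlaps Junos, Junb overlaps Prdx2 and Jund overlaps Gm11175, each on the opposite strand. Junos had 4 to 16 counts and Gm11175 3 to 19 counts per library, few beside those of Jun and Jund. Ccdc85b had 2411, 4427 and 2651 counts in siNC and 3440, 3304 and 2455 in siRIOK3. Prdx2 had 1489, 2592 and 1700 counts in siNC and 2454, 2647 and 2446 in siRIOK3, so it was not lower in siRIOK3 as Junb was. Whether reads are shared in these pairs was not tested.

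Other immediate early genes went both ways. Of 43 listed, 40 were tested, 13 were lower and 9 higher, with a median log2 fold change of −0.13. For this list and those below, the shares over all tested genes were 26.8% lower and 21.1% higher. After GC correction these shares were 15.2% and 16.3%. By smallest p, the leading genes were Tiparp, a poly-ADP-ribose polymerase family member, Phlda1, which is induced through ERK, and Ptgs2, the inducible cyclooxygenase COX-2. Tiparp had 41.1 ± 15.1 CPM in siNC and 3.36 ± 0.524 CPM in siRIOK3 (log2 fold change −3.61, SE 0.326, edgeR adjusted p = 0.000212). Phlda1 went from 186 ± 11.7 to 80.7 ± 1.70 CPM (−1.21) and Ptgs2 from 32.5 ± 10.8 to 5.71 ± 1.08 CPM (−2.51). After GC correction, 15 were lower and 7 higher with a median of −0.39. Phlda1 was then at −1.83 and Tiparp at −1.66, both past the threshold, and Ptgs2, at −0.47, was not (adjusted p = 0.11). Of the 9 genes called higher without the correction, Nr4a1 (1.07) and Hbegf (0.74) had the smallest adjusted p. Both stayed past the threshold after it, at 0.52 and 0.75.

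Serum response factor and its cofactors act on the CArG box of Fos and Egr1. Of 8 tested genes, 3 were higher (Srf, Elk1 and Mrtfa) and 1 was lower (Elk4). Srf had 75.7 ± 11.9 CPM in siNC and 114 ± 7.58 CPM in siRIOK3 (log2 fold change 0.59, SE 0.153, edgeR adjusted p = 0.0166), Elk1 was at 1.29 and Elk4 at −0.45. After GC correction none of these 4 passed. Srf was then at −0.15 and Mrtfa at 0.22, while Elk1 stayed at 1.11 (SE 0.389, adjusted p = 0.0694). None of the 8 was lower in that fit and 1 was higher, Elk3, at 0.58 (adjusted p = 0.016).

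Kinases upstream of AP-1, of the RAS, ERK, JNK and p38 cascades, also went both ways, with 8 of 34 lower and 9 higher. Mapk3, which encodes ERK1, had 26.4 ± 1.34 CPM in siNC and 52.5 ± 2.39 CPM in siRIOK3 (log2 fold change 0.99, SE 0.120, edgeR adjusted p = 0.000669). Map3k2 was at −2.26. Rps6ka1, an ERK-activated kinase gene, was at 1.35 on low levels, 1.05 CPM in siNC and 2.69 CPM in siRIOK3. In the GC-corrected fit, 1 of 33 was lower and 6 were higher. Mapk3 stayed called at 0.42 and Rps6ka1 at 0.81, and Map3k2 was at −0.08 (adjusted p = 0.754). These are transcript levels, and kinase activity was not measured.

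Of 32 tested bZIP relatives, some of which pair with AP-1 subunits, 7 were lower and 8 higher. Creb1, the cyclic AMP response factor, had 54.8 ± 0.620 CPM in siNC and 15.8 ± 1.52 CPM in siRIOK3 (log2 fold change −1.80, SE 0.131, edgeR adjusted p = 8.1e-05). The antioxidant factor gene Nfe2l2 was at −1.50. Jdp2, a Jun partner that represses AP-1 sites, rose from 111 ± 3.99 to 210 ± 7.21 CPM (0.92, SE 0.111, adjusted p = 0.000653). In the GC-corrected fit 5 were lower and 6 higher. Jdp2, at 0.39, and Nfe2l2, at −1.01, passed there, and Creb1, at 0.21, did not.

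Genes that turn over AP-1 proteins or AU-rich mRNAs were lower in 13 of 25 cases and higher in 2, with a median of −0.75. The deadenylase gene Cnot6 was at −2.12, and the ubiquitin ligase genes Fbxw7 and Cop1, whose products target Jun for destruction, were at −1.58 and −1.14, and all 3 passed. After GC correction, 7 were lower and 2 higher and the median was −0.04. Fbxw7 was then at −1.06, past the threshold, while Cnot6 (−0.06) and Cop1 (0.25) were not.

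Textbook AP-1 target genes were lower in 8 of 19 tested cases and higher in 3, with a median of −0.35. The chemokine gene Ccl2 had 97.2 ± 3.77 CPM in siNC and 9.36 ± 1.22 CPM in siRIOK3 (log2 fold change −3.38, SE 0.150, edgeR adjusted p = 2.1e-05). Osteopontin, Spp1, went from 572 ± 73.2 to 148 ± 4.97 CPM (−1.95), and the lysyl oxidase gene Lox from 253 ± 69.5 to 38.8 ± 0.677 CPM (−2.70). Il6, next by smallest p, was at −2.77 on low levels, 2.08 ± 0.464 CPM in siNC and 0.301 ± 0.073 CPM in siRIOK3. After GC correction 7 were lower and 1 higher, and Ccl2 (−2.23), Lox (−1.63) and Spp1 (−1.0) stayed past the threshold. Il6 was then at 0.16 (edgeR adjusted p = 0.792), and the gene called higher was Plau, at 1.10. These genes answer to other factors too, and no binding of AP-1 was measured.

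Heat shock genes, which can move with culture stress or handling as immediate early genes do, were lower in 4 of 10 tested cases and higher in 1. Hsp90aa1 had 4270 ± 714 CPM in siNC and 341 ± 14.9 CPM in siRIOK3 (log2 fold change −3.65, SE 0.173, edgeR adjusted p = 2.68e-05), and Dnaja1 and Hspd1 were at −1.23 and −1.17. In the GC-corrected fit the counts were again 4 and 1. Hsp90aa1 was then at −2.55 and Hspd1 at −0.72, and Dnaja1, at 0.49, was called in the opposite direction. The part of handling in the falls of Fos and Fosb was not tested.

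**Figure D5:**
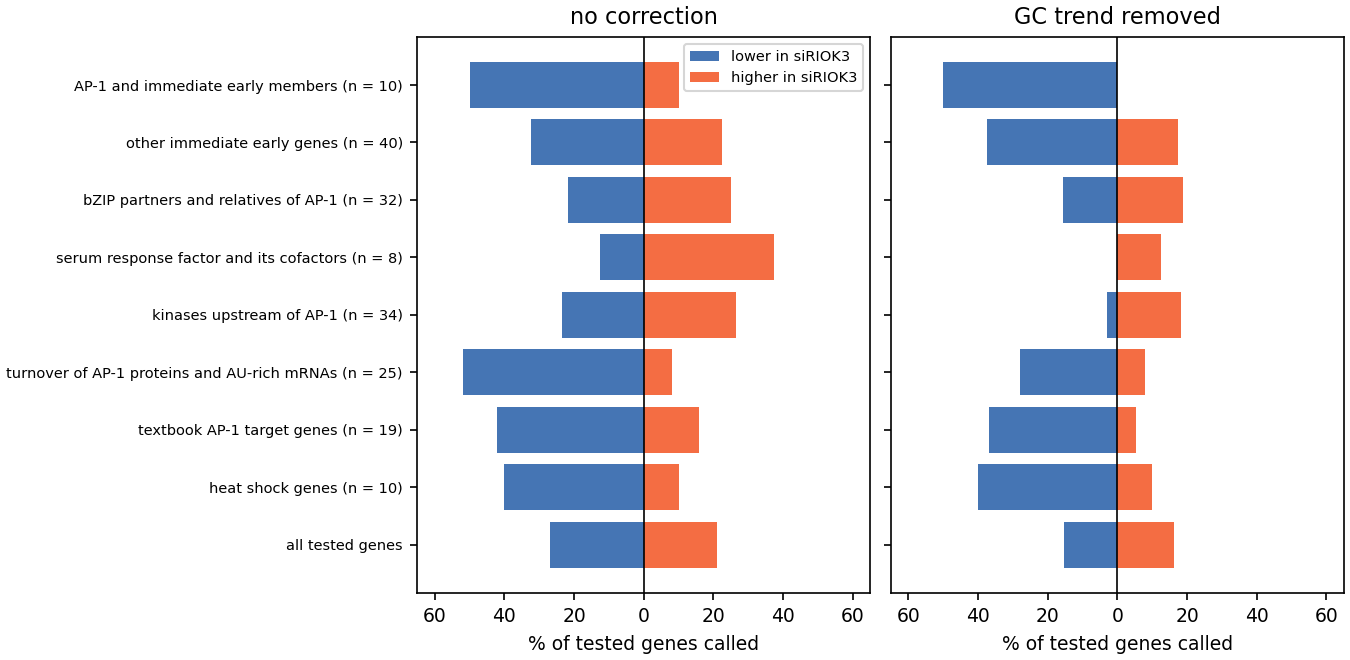
Percentage of the tested genes of each list called lower (left of 0) and higher (right of 0) in siRIOK3, without a correction and with the GC trend removed, beside all tested genes. For the AP-1 and immediate early members 5 of 10 are lower in both panels, against 26.8 and 15.2% of all tested genes. The kinases have 33 tested genes in the right panel.

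The expression profiles most like that of Fos over the 6 libraries, by Euclidean distance between centred log2 CPM among 9210 genes, were those of Ttc14, the dyskerin gene Dkc1, Akr1c14, Zfp141 and the versican gene Vcan (distances 0.168 to 0.229). Their log2 fold changes were −3.14 to −3.38. Those most like Jun were the chromatin protein gene Hmga2, Phlda1, Gfod1, Rspry1 and Zfp462 (distances 0.0779 to 0.151), with log2 fold changes of −1.17 to −1.21. Fold changes near those of Fos and Jun follow from choosing the genes by distance over both groups. Phlda1 is the only one of these 10 genes that is also on the list of other immediate early genes. After GC correction the genes like Fos were at −0.90 to −2.20, against −3.41 for Fos, and all 10 stayed past the threshold.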

How the data were processed

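Per the labels' protocols, libraries were made with a stranded mRNA kit and sequenced as read pairs. The submitters' processing notes name HISAT2, MultiQC and GRCm39 without versions. No source used here names the counting tool or its strand setting. Raw counts were deposited for 22030 genes. The authors also deposited FPKM for 21879 genes, which was used for levels per length and for alternatives.

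Counts were tested with edgeR 4.0.16 (R 4.3.3): filterByExpr, TMM scaling and the robust quasi-likelihood test over 13067 genes, with no covariates and Benjamini-Hochberg adjustment. The SE is the log2 fold change divided by the square root of F. Log2 CPM used a prior count of 2. GC content, adenine content and length come from 1 GENCODE M21 (GRCm38) transcript per gene, the one with the longest coding part, matched by identifier for 13043 genes (99.8%). Each library's loess trend (span 0.3) on them entered edgeR as an offset. Only fold changes in the text that are said to have a trend removed use it. Scripts were tested on simulated counts. The members, lists and corrections were chosen with earlier results of these data known. Named genes are the members, 3 or 4 genes of each list by smallest p, some of the markers reaching 10 CPM, and the 5 profiles nearest to Fos and to Jun. Further genes are named for a call in the other direction, a call after correction or low counts. Alternatives were DESeq2 1.42.0, limma-voom and limma-trend (limma 3.58.1), other scalings and filters, a replicate block and each library left out. The limma-voom fit used quality weights for the libraries.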

Additional observations from a re-analysis of the deposited data

How the results depend on the processing

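Over 22 alternatives the log2 fold change lay between −3.51 and −2.41 for Fos, −1.33 and −0.43 for Fosl1 and −1.71 and −0.88 for Jun, and over 20 between −4.00 and −1.03 for Fosb. All of these passed. Junb passed in 12 of 22 (−1.21 to −0.21), and Egr1 was called in 15 of 22, among them 1 in the opposite direction. The number of members called lower was 3 with log2(FPKM + 1) and with log2(FPKM + 0.1), where the filter removed Fosb, 9 with the GC offset and without siNC replicate 2, and 4 to 5 with 1 library left out. The number called higher was 3 with limma-voom, 2 with library totals alone and in the 3 FPKM fits, 0 to 2 with 1 library left out, and 0 in the 5 fits with a composition offset. Of all genes, 1976 and 1974 were lower with log2(FPKM + 1) and log2(FPKM + 0.1), 1988 with the GC offset and 2074 with GC, adenine and length, and 2693 to 4891 with 1 library left out. Higher were 4672 with limma-voom, 4280 with library totals alone, 4499 with the GC offset without siNC replicate 2, and 1647 to 4701 with 1 library left out (1653 and 1647 without siRIOK3 replicates 1 and 2, 4701 without siNC replicate 2). Library totals alone moved the median over all genes from 0.01 to 0.26 (log2) and called 2814 lower, and upper-quartile factors moved it to 0.21 and called 2938 lower and 3771 higher.

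With the GC offset, with GC and length, with GC, adenine and length, with the GC offset and the block, and with the GC offset without siNC replicate 2, the log2 fold changes were −0.18, −0.26, −0.46, −0.18 and −0.29 for Fosl2, −0.22, −0.28, −0.25, −0.23 and −0.19 for Jund, −0.44, −0.34, −0.32, −0.41 and −0.19 for Ier2 and −0.36, −0.19, −0.31, −0.35 and −0.25 for Ier3. In the same order they were −0.15, −0.27, −0.23, −0.12 and −0.33 for Srf, 0.25, 0.35, 0.21, 0.25 and 0.32 for Cop1 and 0.49, 0.60, 0.53, 0.49 and 0.60 for Dnaja1. Egr1 was at −0.07, −0.10 and −0.15 with GC and length, with adenine as well, and in the last of these fits. Creb1 was at 0.21, 0.30, 0.22 and 0.36 in all but the fit with adenine, and Cnot6 at 0.08 and Map3k2 at 0.19 with GC and length. Fosl2 was also at −0.01 with limma-voom and without siNC replicate 2 (−0.01 to 0.20 with 1 library left out), and Ier3 (−0.03 to 0.13) at −0.03, −0.01 and −0.02 without siNC replicate 1 or 3 or siRIOK3 replicate 1. The Jun family difference was −0.26 as CPM per kb and −0.05 to 0.16 with 1 library left out (−0.03 without siNC replicate 1, −0.02 without siRIOK3 replicate 2). The cause of these shifts was not tested.

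Same-numbered libraries did not deviate together (correlations −0.076, 0.044 and 0.052, and only number 3 was matched best by its own number), so the numbers are not taken as pairs. With the replicate block 4 members were lower and 1 higher, Junb losing its call (adjusted p = 0.0593), and 3225 genes were lower and 2390 higher; with the GC offset as well, 5 and 0 members and 1540 and 1562 genes. Of 308 list counts under the alternatives, 213 stayed within 1.5 times the reported count. Depth was not limiting for the members except Fosb, with 33 to 39 counts per siRIOK3 library.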
